A study of Mus musculus with 15 samples.

Results

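Mitochondrial ribosomal proteins are the proteins of the ribosome that works inside mitochondria. The genes described here are the rows of the count table whose mouse symbol is Mrpl or Mrps followed by a number, with pseudogene symbols left out. The rule gave 78 genes of 27179, 49 named for the large subunit (Mrpl) and 29 for the small subunit (Mrps), and no pseudogene row had to be dropped. Of the 78, 77 passed the filter on low counts and were tested, 48 of the large and all 29 of the small subunit.

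Messenger RNA was measured in 15 libraries of mouse CD4 T cells, 5 labelled Tfh (T follicular helper), 5 labelled Th17 and 5 labelled Th1. All came from the genotype B6.Cg-Ifngtm3.1Lky-Il17atm1.1Lky, which carries altered Ifng and Il17a alleles in every condition, and no library of unaltered cells was analysed here. Naive cells were stimulated for 3.5 days in vitro with antibodies against CD3 and CD28 fixed to the plate, then sorted by flow cytometry. The gate for Tfh cells took CXCR5-bearing cells without IL-17A, and the gate for Th1 cells took those with interferon gamma. The sources used here do not give the Th17 gate, the cytokines added to each culture or the age of the mice. Nor do they say that the 5 libraries of a condition came from separate mice, and what the p-values measure is therefore the spread between libraries, which may be technical.

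Mitochondria carry a small genome that encodes subunits of the respiratory chain and of the ATP synthase, and the mitochondrial ribosome translates the messages of that genome alone. All of its proteins are encoded in the nucleus, made in the cytosol and imported, while its ribosomal RNAs come from mitochondrial DNA. The small subunit decodes the message, and the large subunit joins amino acids and feeds the new chain towards the inner membrane. Some of the proteins have bacterial homologues, and others were added in the mitochondrial lineage. CD4 T cells enlarge their mitochondria when they are activated, and mitochondrial translation is known to bear on their cytokine production.

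The libraries held 4871468 to 25200382 counts, and the 78 genes took 0.39 to 0.454% of the counts in the Tfh libraries, 0.468 to 0.518% in the Th17 libraries and 0.489 to 0.538% in the Th1 libraries. Levels are given as CPM, counts per 1000000 of the TMM-scaled library size, and errors of means are SDs of 5 libraries. The condition labels were set beside markers. Cxcr5, Ifng and Il17a belong to the sort gates, and Ifng and Il17a are also the altered genes, so their levels are no independent check. Cxcr5 averaged 169 ± 14.2 CPM in Tfh, 39 ± 4.75 CPM in Th17 and 10.3 ± 2.13 CPM in Th1 libraries, and Ifng averaged 0.341 ± 0.295, 0.51 ± 0.322 and 840 ± 136 CPM in the same order. Il17a averaged 15.1 ± 6.18 CPM in Tfh, 225 ± 24.4 CPM in Th17 and 0.0595 ± 0.0829 CPM in Th1 libraries. Of 5 Tfh markers (Bcl6, Cxcr5, Pdcd1, Il21 and Maf), 3 were called higher in Tfh than in Th17 libraries (60%, against 6.8% of all genes). All 5 were also called higher in Th17 than in Th1 libraries (against 19% of all genes). Of 4 Th17 markers, 3 were called lower in Tfh than in Th17 libraries (75%, against 9.98% of all genes). Of 9 markers of B cells, CD8 T cells, myeloid cells and natural killer cells, Cd8a and Cd8b1 passed the filter. The 9 summed to 5.22 to 13.1 CPM in Tfh, 6.54 to 16.6 CPM in Th17 and 7.43 to 26.5 CPM in Th1 libraries, with Ncr1 at 0 in all libraries. Cd8a was at 0 in all Tfh libraries and averaged 0.259 ± 0.389 CPM in Th17 and 5.52 ± 3.49 CPM in Th1 libraries, and the part of such cells in the results was not tested. Libraries of a condition also differed in how their counts followed base composition. Each library's deviation from the mean of its own condition was correlated by rank with transcript GC content across genes. These correlations lay between -0.63 and 0.69, and they describe differences within conditions only.

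Promoters of the mitochondrial ribosomal protein genes were read from RefSeq (build GRCm38.p6), which held a window of 250 bases before to 50 bases after a gene start for 69 of the 78. Both strands of each window were searched for short motifs. That of NRF1, nuclear respiratory factor 1, was written GCGCATGCG, and since its last 8 letters read the same on both strands a single place can match on both. That of ETS factors such as GABP was CCGGAAG, and that of YY1 was AAGATGGCG. The E-box, which Myc can bind, was CACGTG. The letters for the SP1 motif were GGGCGGG, those for the TATA box were TATAAA, and the CCAAT box was searched by its name. NRF1, GABP and YY1 are known regulators of nuclear genes for mitochondrial proteins. Their letters stood in the windows of more members than of all 9626 tested genes with a window: NRF1 in 7 members (10.1%, against 4.25% of tested genes), ETS in 26 (37.7% against 21.1%) and YY1 in 8 (11.6% against 3.71%). Any of these 3 stood in 36 of 69 members (52.2%), against 27% of the tested genes. The other motifs were less frequent in members, with the E-box in 7.25% against 11.9%, CCAAT in 39.1% against 43.2%, SP1 in 42% against 52.2% and TATA in 7.25% against 8.4%. By subunit, NRF1 stood in 6 of 43 large-subunit and 1 of 26 small-subunit windows, and ETS in 15 of 43 and 11 of 26. These shares are descriptions, and a match is not a binding site.

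The 250 bases before the start that each window uses are shown for 4 members, with NRF1 and ETS matches in capitals. Mrpl39, Mrpl32 and Mrpl22 show the NRF1 letters in the family, and Mrps5 is shown because it had the largest rise of any member in Tfh cells.
Mrps5, chr2:127587176-127587425, plus strand: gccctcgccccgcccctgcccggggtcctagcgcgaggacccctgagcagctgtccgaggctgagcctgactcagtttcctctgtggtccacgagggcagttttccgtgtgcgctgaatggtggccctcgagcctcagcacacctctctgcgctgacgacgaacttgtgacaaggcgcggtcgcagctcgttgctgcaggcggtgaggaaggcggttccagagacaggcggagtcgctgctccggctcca
Mrpl39, chr16:84735245-84735494, minus strand: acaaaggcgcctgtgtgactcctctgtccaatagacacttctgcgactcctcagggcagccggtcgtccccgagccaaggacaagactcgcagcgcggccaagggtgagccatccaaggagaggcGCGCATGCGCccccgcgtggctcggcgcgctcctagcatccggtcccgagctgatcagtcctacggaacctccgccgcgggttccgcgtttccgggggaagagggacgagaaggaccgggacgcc
Mrpl32, chr13:14613038-14613287, minus strand: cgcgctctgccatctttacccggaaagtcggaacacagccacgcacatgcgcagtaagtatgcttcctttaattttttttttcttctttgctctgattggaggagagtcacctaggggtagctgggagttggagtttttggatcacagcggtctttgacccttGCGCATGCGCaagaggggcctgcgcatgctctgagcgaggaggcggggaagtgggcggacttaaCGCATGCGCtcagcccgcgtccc
Mrpl22, chr11:58171414-58171663, plus strand: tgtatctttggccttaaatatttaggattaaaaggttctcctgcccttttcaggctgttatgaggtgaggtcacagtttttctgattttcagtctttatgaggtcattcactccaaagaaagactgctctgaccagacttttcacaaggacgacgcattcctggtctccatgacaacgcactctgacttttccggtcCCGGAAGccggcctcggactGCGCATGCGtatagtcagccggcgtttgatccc
Mrpl39 held the palindrome 125 bases before its start, and Mrpl32 held it 87 bases before the start and a further match 23 bases before it. Mrpl22 held an ETS match 53 bases and an NRF1 match 33 bases before the start that its window uses. That start lies inside the annotated Mrpl22 gene, which begins at chr11:58170043. The Mrps5 window held none of these letters for NRF1, ETS or YY1, and its 1 match was to SP1. Among members with a window, 31 were called lower in Tfh in a comparison and 38 were not. The ETS letters stood in 10 of the 31 and 16 of the 38, and those of NRF1 in 4 and 3. Whether such letters bear on the levels was not tested.

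Over all members, Tfh libraries had the lowest levels. The summed level of the 78 genes averaged 4133 ± 239 CPM in Tfh (lowest 3945, highest 4518), 4975 ± 98.4 CPM in Th17 (4820 to 5062) and 5281 ± 283 CPM in Th1 libraries (5033 to 5748). No Tfh library reached the lowest Th17 or Th1 library, whereas the Th17 and Th1 ranges met. The ratio of means was 0.831 for Tfh to Th17, 0.783 for Tfh to Th1 and 0.942 for Th17 to Th1. In bulk RNA, fewer cells with a transcript and less of it per cell cannot be told apart.

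Both subunits were lowest in Tfh libraries, and the difference between their mean log2 levels overlapped between the conditions. The mean log2 CPM of the tested large-subunit genes was 5.41 ± 0.08 in Tfh, 5.73 ± 0.07 in Th17 and 5.78 ± 0.12 in Th1 libraries. For the small subunit it was 5.25 ± 0.16 in Tfh, 5.58 ± 0.04 in Th17 and 5.55 ± 0.08 in Th1 libraries. On this measure all 5 Tfh libraries lay below all Th17 libraries in both subunits, and below all Th1 libraries in the large subunit only, since the highest Tfh library (5.51) passed the lowest Th1 library (5.48) in the small subunit. The large minus small difference of mean log2 CPM was 0.15 ± 0.11 in Tfh, 0.15 ± 0.06 in Th17 and 0.23 ± 0.08 in Th1 libraries. The conditions' differences in this measure were 0.01 for Tfh minus Th17, -0.08 for Tfh minus Th1 and -0.09 for Th17 minus Th1, and the libraries overlapped in all 3. On summed CPM, which weights the highly expressed genes, the small subunit's Tfh libraries overlapped those of both other conditions (1476 to 1786 in Tfh, 1746 to 1816 in Th17 and 1728 to 1956 CPM in Th1), and the large subunit's did not. The large subunit took 62.4 ± 1.2% of the members' level in Tfh, 64.4 ± 0.835% in Th17 and 65.9 ± 0.394% in Th1 libraries, with no overlap between Tfh (60.5 to 63.8%) and Th1 (65.3 to 66.4%).

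**Figure D1:**
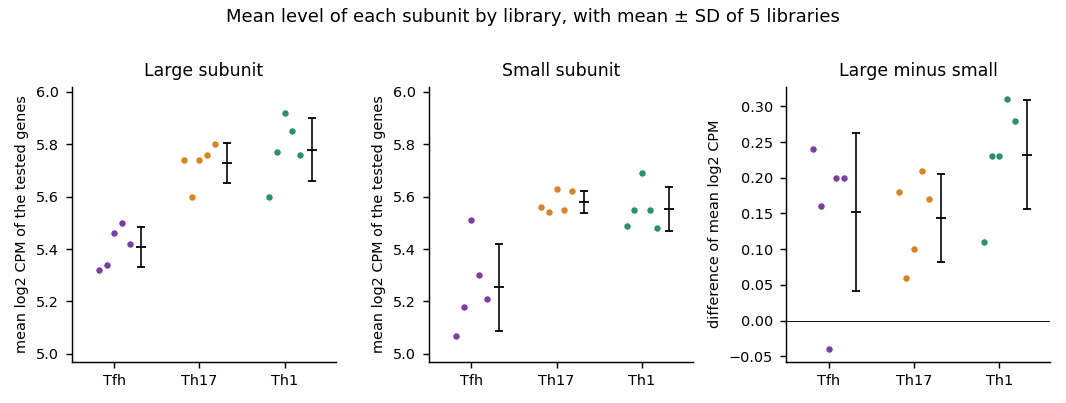
Mean log2 CPM of the tested large-subunit (48) and small-subunit (29) genes in each library, and their difference, with points for the 5 libraries of each condition and bars for the mean ± SD; the vertical axes do not start at 0. Tfh libraries lie below Th17 libraries in both subunits, and the difference between subunits overlaps between the conditions.

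Against Th17 cells, 12 members were lower in Tfh cells and 1, Mrps5, was higher. The 13 called members were 16.9% of the 77 tested, against 16.8% of all 12591 genes tested, so in this fit the share called was at the background. The direction was not evenly spread: 69 of the 77 log2 fold changes were below 0, against 50.7% of all genes, and the median was -0.29 in the large and -0.33 in the small subunit, against -0.01 over all genes. Of the large-subunit genes 6 were lower (12.5%) and 0 were higher by edgeR, DESeq2 or limma-voom, with 17 in either direction at an unadjusted p under 0.05, and of the small-subunit genes 6 were lower (20.7%) and 1 was higher, against 9.98% lower and 6.8% higher over all genes. Across all members, 30 had an unadjusted p under 0.05. The small-subunit count of 6 dropped to 3 without Th17 replicate 3, without Tfh replicate 2 or without Tfh replicate 5, and the large-subunit count of 6 became 12 with a correction for GC content, under which 18 members were lower and 1 was higher and 28.2% of all genes were called.

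Mrps5 was the member that rose. It is the mitochondrial homologue of bacterial S5, which in Escherichia coli lies at the entry of the message and bears on decoding accuracy, and its gene is at chr2:127587426-127603986 (GRCm38, plus strand). It had 102, 82.2, 84.6, 54.8 and 94.4 CPM in Tfh libraries, against 32.4, 23, 34.9, 27.5 and 25.6 CPM in Th17 libraries and 23.3, 23.9, 17.8, 18.2 and 22.1 CPM in Th1 libraries. Every Tfh library lay above every other library, and the Th17 and Th1 libraries overlapped. By edgeR's quasi-likelihood test the log2 fold change was 1.54 ± 0.18 (SE) for Tfh over Th17 (2.91-fold, adjusted p = 8.83e-06) and 1.99 ± 0.18 for Tfh over Th1 (3.98-fold, adjusted p = 3.53e-08), and it was 0.45 ± 0.17 for Th17 over Th1 (adjusted p = 0.0516). Leaving out any library kept the first value between 1.46 and 1.66. Zfp661, which starts upstream of Mrps5 and is read from the other strand, had 5.3 ± 1.79 CPM in Tfh, 3.83 CPM in Th17 and 3.84 CPM in Th1 libraries and was not called, and Mal, a neighbouring gene, had no count.

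The 6 small-subunit genes lower in Tfh cells were Mrps28, Mrps15, Mrps33, Mrps10, Mrps14 and Mrps18b, and the libraries overlapped for none of them. For Tfh against Th17, the libraries did not overlap for 9 small-subunit genes (31%) and 5 large-subunit genes (10.4%). Over all genes the share was 14.5%. Mrps28, a homologue of part of bacterial S1, had 21.3, 12.9, 13.4, 17.1 and 10.9 CPM in Tfh, against 27.9, 27.5, 22.6, 23.4 and 32.8 CPM in Th17 libraries. Mrps15, the homologue of bacterial S15, an rRNA-binding protein of early subunit assembly, had 57.8, 85.9, 77.9, 59.7 and 73.7 CPM in Tfh, against 148, 130, 117, 87.1 and 94.5 CPM in Th17 libraries. Tfh libraries were below Th17 libraries throughout for both genes, though for Mrps15 the highest Tfh library came close to the lowest Th17 library. The log2 fold changes were -0.84 ± 0.19 for Mrps28 (adjusted p = 0.00458) and -0.70 ± 0.16 for Mrps15 (adjusted p = 0.00543). Mrps33, a protein without a bacterial homologue, averaged 22.1 ± 4.84 CPM in Tfh and 34.3 ± 3.67 CPM in Th17 libraries, with a log2 fold change of -0.63 ± 0.17 (adjusted p = 0.0166). Its call was lost without Th17 replicate 3 (adjusted p = 0.0534), without Tfh replicate 2 (0.0562) or without Tfh replicate 5 (0.0539).

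Mrps10, the homologue of bacterial S10, had 2.9, 16.8, 16.7, 15.1 and 14.9 CPM in Tfh, against 27.5, 22.2, 25.8, 24.8 and 21 CPM in Th17 libraries. Tfh replicate 1, the shallowest library, lay far below the other 4, which were themselves below all Th17 libraries. The log2 fold change of -0.85 ± 0.29 passed narrowly (adjusted p = 0.0491). It was -0.61 with an adjusted p of 0.01 without Tfh replicate 1, was also called without Th1 replicate 1, and was not called when any other library was left out (adjusted p up to 0.1). Mrps18b, at -0.44 ± 0.15 (adjusted p = 0.0489), was called under 6 of the 24 alternative settings, with adjusted p between 0.0257 and 0.128, and Mrps14, the homologue of bacterial S14, was called under all 24 (log2 fold change -0.60, 42.6 ± 3.88 CPM in Tfh and 64.8 ± 10.1 CPM in Th17 libraries).

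**Figure D2:**
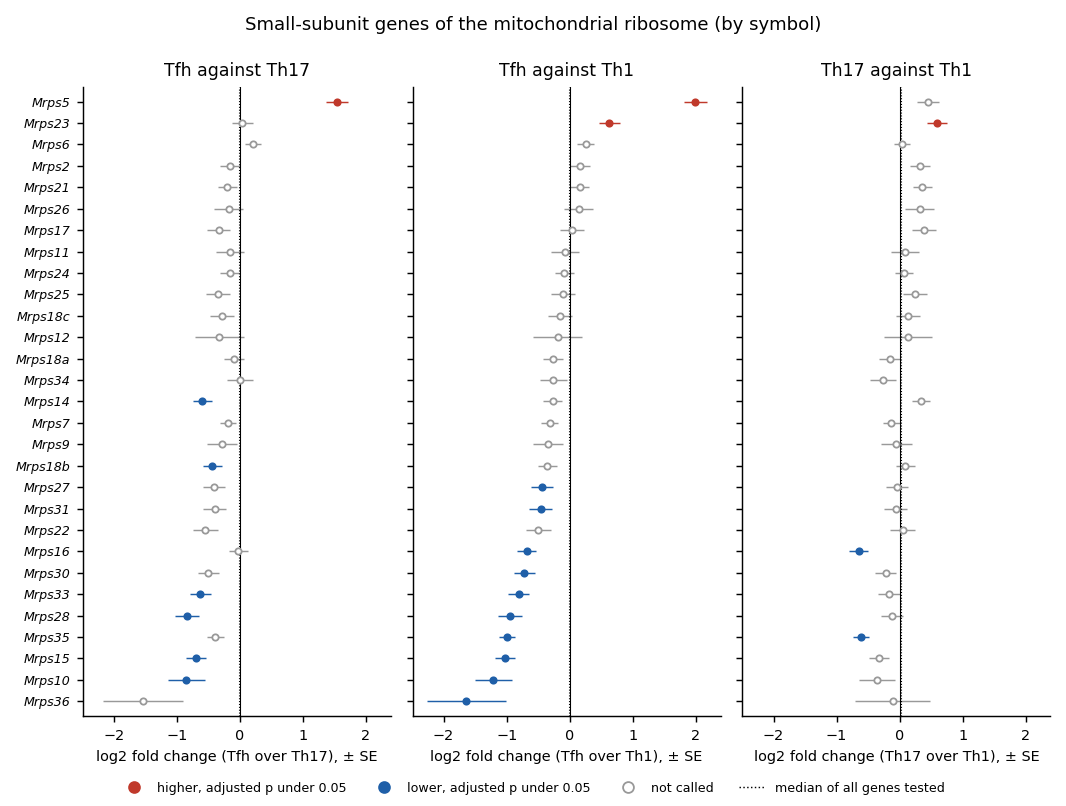
Log2 fold change ± SE of the 29 small-subunit genes (by symbol) in the 3 comparisons, ordered by Tfh against Th1; filled points passed an adjusted p of 0.05, open points did not, and the dotted line is the median of all genes tested. Mrps5 stands far to the right in both Tfh comparisons, and most other points lie left of 0 there.

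In the large subunit, the 6 genes lower in Tfh cells than in Th17 cells were Mrpl40, Mrpl20, Mrpl18, Mrpl39, Mrpl42 and Mrpl45. Mrpl40, a mitochondria-specific protein, had 64.6, 77.3, 83.4, 55.5 and 78.9 CPM in Tfh, against 138, 124, 104, 95.9 and 101 CPM in Th17 libraries. Mrpl20, the homologue of bacterial L20, which helps to assemble the large subunit in Escherichia coli, had 17.6, 15.7, 24.1, 23.1 and 22.8 CPM in Tfh, against 31.3, 24.7, 34.8, 32.1 and 33.3 CPM in Th17 libraries. The groups did not overlap for either gene, although for Mrpl20 the lowest Th17 and the highest Tfh library nearly met. The log2 fold changes were -0.65 ± 0.15 for Mrpl40 (adjusted p = 0.00555) and -0.59 ± 0.16 for Mrpl20 (adjusted p = 0.0151), and without Th17 replicate 3 the call of Mrpl20 was lost (-0.54, adjusted p = 0.0559). Mrpl39, a mitochondria-specific protein whose upstream bases are shown above, had 74.4, 62.6, 70, 52.6 and 72.5 CPM in Tfh, against 103, 102, 87.2, 89.6 and 83.4 CPM in Th17 libraries (log2 fold change -0.49 ± 0.12, adjusted p = 0.0102). Mrpl18, the homologue of the bacterial 5S-rRNA-binding protein L18, averaged 66.1 ± 7.63 CPM in Tfh and 95.6 ± 8.35 CPM in Th17 libraries (-0.53 ± 0.13, adjusted p = 0.00649). Its exons overlap those of Tcp1 in the GENCODE vM21 annotation, so its counts are less certain. Mrpl42 was called under 17 of the 24 alternative settings.

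Against Th1 cells, 30 members were lower in Tfh cells and 4 were higher. The 34 called members were 44.2% of the 77, against 49.3% of all genes, and the libraries of 16 members (20.8%) did not overlap, against 34.3% of all genes. Members were thus called no more often than genes at large, but with another balance: 41.7% of the large-subunit and 34.5% of the small-subunit genes were lower, against 25.2% of all genes, and 4.17% and 6.9% were higher, against 24.1%. The median log2 fold change was -0.25 in the large and -0.27 in the small subunit, against -0.01 over all genes. A correction for GC content moved the median of all genes by over 0.1, to 0.11, and the members' medians to -0.14 and -0.15, which is -0.25 and -0.27 relative to all genes.

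Mrpl1, Mrpl33 and Mrpl45 had the largest falls of the large subunit for Tfh over Th1. Mrpl45 lies at the end of the exit tunnel and ties the ribosome to the inner membrane, and its gene is at chr11:97314923-97329920 (GRCm38, plus strand). It had 99.2, 87.4, 92.2, 85 and 78.1 CPM in Tfh, against 217, 210, 224, 219 and 213 CPM in Th1 libraries, and 123, 134, 108, 115 and 124 CPM in Th17 libraries. The 3 conditions formed separate ranges, Tfh lowest and Th1 highest, and Mrpl45 had the narrowest log2 spread of all members among the Th1 libraries. The log2 fold change was -1.29 ± 0.11 for Tfh over Th1 (adjusted p = 1.05e-08), -0.45 ± 0.11 for Tfh over Th17 (adjusted p = 0.00594) and -0.84 ± 0.11 for Th17 over Th1 (adjusted p = 4.02e-06).

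Mrpl1, the homologue of bacterial L1 of the stalk that handles outgoing tRNA, had 24.2, 30.1, 18.4, 12.5 and 23 CPM in Tfh, against 149, 85.5, 50.8, 45.5 and 80.6 CPM in Th1 libraries. Mrpl33, the homologue of bacterial L33, had 79.6, 72.7, 58.7, 35.9 and 51.2 CPM in Tfh, against 288, 188, 83, 92.5 and 184 CPM in Th1 libraries. Neither gene's groups overlapped, but both varied several-fold within Th1 and were lowest there in replicates 3 and 4, the libraries whose deviations rose most with GC content (correlations 0.68 and 0.69). Their transcripts held 41.4% (Mrpl1) and 46.9% (Mrpl33) GC, against a median of 50.1% over the members. The log2 fold changes were -1.93 ± 0.33 for Mrpl1 (adjusted p = 9.46e-05) and -1.49 ± 0.34 for Mrpl33 (adjusted p = 0.00123), and with the GC correction they were -1.79 and -1.38 and were called. Mrpl19, the homologue of bacterial L19 at the subunit interface, averaged 48.3 ± 7.79 CPM in Tfh and 92.7 ± 11.1 CPM in Th1 libraries (-0.94 ± 0.15, adjusted p = 3.26e-05). Its exons overlap those of Gcfc2 in GENCODE vM21. In Th17 libraries Mrpl1 averaged 33.6 ± 13.2 CPM, Mrpl33 95 ± 40.8 CPM and Mrpl19 57.3 ± 8.43 CPM. By edgeR none of them was called for Tfh over Th17 (adjusted p = 0.206, 0.186 and 0.278). For Th17 over Th1, Mrpl1 was lower (-1.29 ± 0.32, adjusted p = 0.00401), though its libraries overlapped. Mrpl33 was not called there (-0.81 ± 0.33, adjusted p = 0.0617).

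In the small subunit, Mrps10, Mrps15, Mrps35 and Mrps28 were lower in Tfh than in Th1 cells with separated libraries. Mrps35, a mitochondria-specific protein, had 54.5, 57.3, 50.9, 51.8 and 43.6 CPM in Tfh, against 106, 108, 101, 90.4 and 113 CPM in Th1 libraries, a difference several times the spread within either condition (2.01-fold lower, adjusted p = 4.92e-06). Mrps15 had 175, 153, 133, 130 and 135 CPM in Th1 libraries, all above its Tfh libraries (log2 fold change -1.03 ± 0.16, adjusted p = 3.38e-05). Mrps28 averaged 15.1 ± 4.12 CPM in Tfh and 29 ± 3.44 CPM in Th1 libraries (-0.95 ± 0.19, adjusted p = 0.000373). Mrps10 averaged 13.3 ± 5.87 CPM in Tfh and 31.1 ± 4.11 CPM in Th1 libraries (-1.21 ± 0.29, adjusted p = 0.00186). All 4 were called under all 24 alternative settings.

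The members higher in Tfh than in Th1 cells were Mrps5, Mrpl41, Mrps23 and Mrpl46. Mrpl41, a mitochondria-specific protein, had 53, 28, 24.3, 30.8 and 35.4 CPM in Tfh, against 23.8, 18.1, 18.4, 23.4 and 20.9 CPM in Th1 libraries, and the closest libraries of these conditions nearly met without overlapping. Mrps23, a mitochondria-specific protein, had 112, 93.5, 114, 121 and 108 CPM in Tfh, against 44.7, 70, 86.6, 82.3 and 70.2 CPM in Th1 libraries, again without overlap. The log2 fold changes were 0.71 ± 0.19 for Mrpl41 (adjusted p = 0.00402) and 0.63 ± 0.16 for Mrps23 (adjusted p = 0.00293), both called under all 24 alternative settings. Mrpl46, at 0.57 ± 0.22 (adjusted p = 0.0388), was called under 11 of 24, and its libraries overlapped. Its exons overlap those of Mrps11 in GENCODE vM21, but the RefSeq positions do not (Mrpl46 to chr7:78783089, Mrps11 from chr7:78783131). The count of large-subunit genes called higher was 1 without any 1 of Th1 replicates 1, 3, 4 and 5, Th17 replicates 3, 4 and 5 and Tfh replicates 1, 3, 4 and 5.

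**Figure D3:**
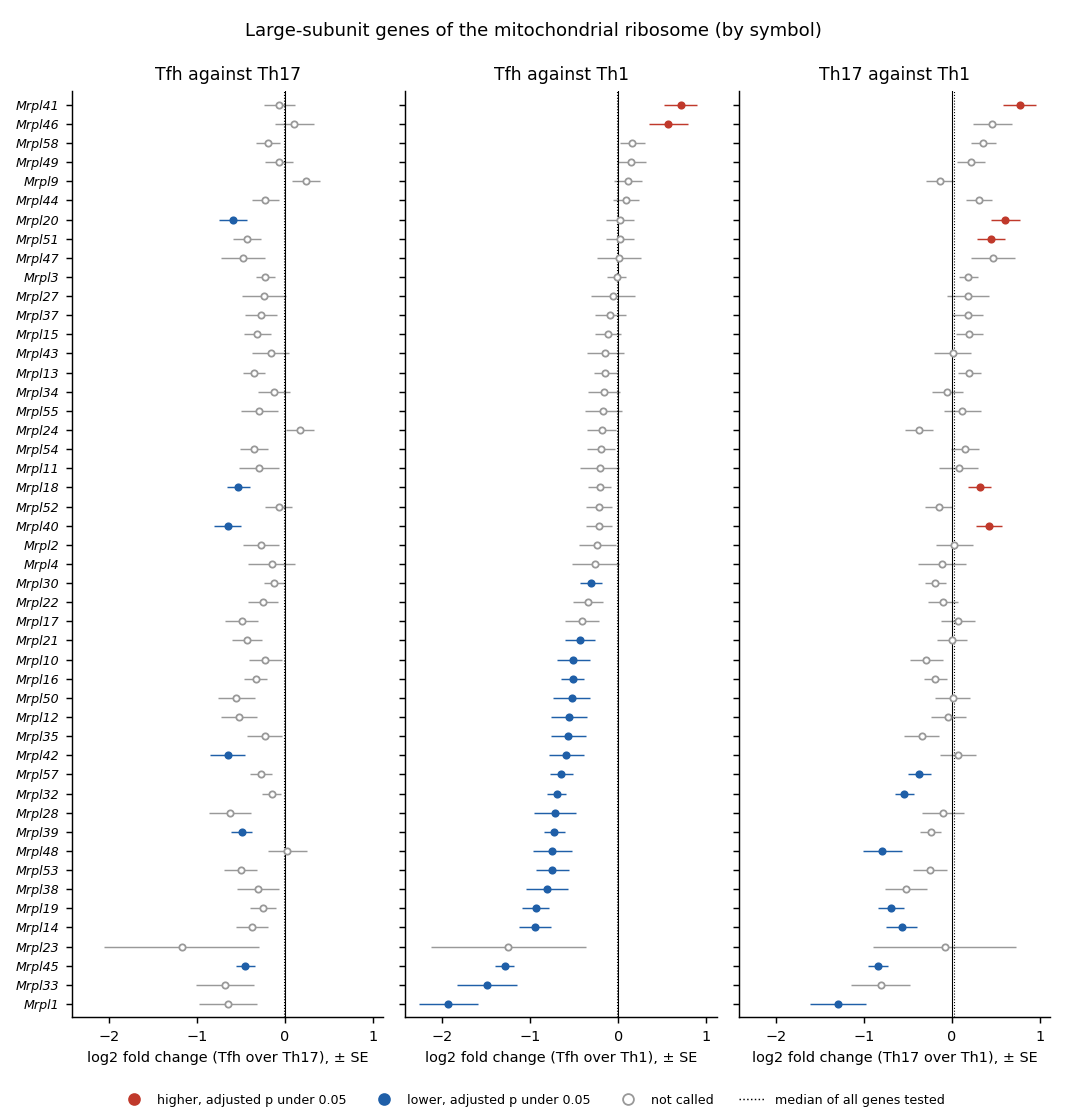
Log2 fold change ± SE of the 48 tested large-subunit genes in the 3 comparisons, ordered by Tfh against Th1; filled points passed an adjusted p of 0.05, open points did not, and the dotted line is the median of all genes tested. Most points lie left of 0 in both Tfh comparisons, and points lie on both sides of 0 for Th17 against Th1.

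Between Th17 and Th1 cells, 6 members were higher in Th17 and 9 were lower. The 15 called members were 19.5% of the 77, against 36.9% of all genes (19% higher and 17.8% lower), and the median log2 fold change was -0.02 in the large and 0.04 in the small subunit, against 0.03 over all genes. In the large subunit 5 were higher and 7 were lower, and in the small subunit 1 was higher and 2 were lower. The split depended on the scaling: with RLE size factors 3 members were higher and 11 lower, and with library size alone 8 were higher and 9 lower. The split of all called genes moved the same way, with 46.1% higher in Th17 by RLE and 54.1% by library size alone. Relative to all genes, the large-subunit median was -0.04 with either scaling. The large-subunit count of 5 higher became 2 without Th1 replicate 3 or 4, Th17 replicate 3 or Tfh replicate 3 or 5, and 3 without Th1 replicate 2 or 5, Th17 replicate 1, 2 or 5 or Tfh replicate 2. The small-subunit count of 1 higher became 3 without Th1 replicate 1 and 2 without Th1 replicate 3, Th17 replicate 2 or Tfh replicate 1 or 4.

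Mrpl41 had 38.4, 33.8, 37, 34.9 and 33.6 CPM in Th17 libraries, all above the Th1 libraries (log2 fold change 0.77 ± 0.19, adjusted p = 0.00307), and Mrps23 averaged 107 ± 14.1 CPM in Th17 and 70.8 ± 16.3 CPM in Th1 libraries (0.59 ± 0.16, adjusted p = 0.0066). Mrpl20 averaged 31.2 ± 3.91 CPM in Th17 and 20.4 ± 1.27 CPM in Th1 libraries (0.61 ± 0.16, adjusted p = 0.0052), so that Th17 cells stood above both other conditions for this gene. Mrpl18, Mrpl40 and Mrpl51 were higher by 0.32, 0.42 and 0.45 on the log2 scale and were called under 6, 10 and 14 of the 24 alternative settings. Among the lower members, Mrpl48, a mitochondria-specific protein, averaged 15 ± 1.24 CPM in Th17 and 25.9 ± 5.91 CPM in Th1 libraries (-0.79 ± 0.22, adjusted p = 0.00807). Exons of Mrpl48 overlap those of Rab6a in GENCODE vM21. Mrpl19 (-0.69 ± 0.15, adjusted p = 0.00101) and Mrps35 (-0.61 ± 0.13, adjusted p = 0.00118) were also lower. Mrpl32, whose protein is cleaved into its mature form by the m-AAA protease before it joins the ribosome, averaged 83.4 ± 4.4 CPM in Th17 and 122 ± 10.2 CPM in Th1 libraries (-0.54 ± 0.11, adjusted p = 0.000502).

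**Figure D4:**
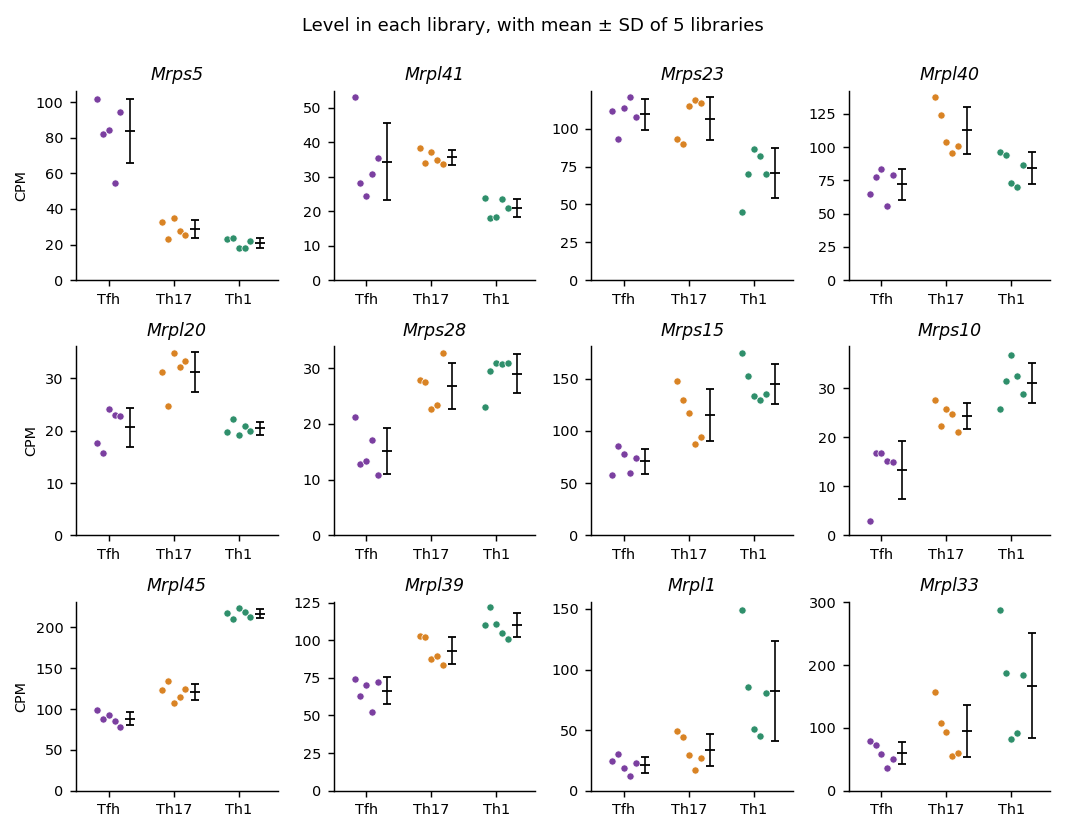
CPM of 12 members in each library (points), with the mean ± SD of 5 libraries (bars); each vertical axis starts at 0 and has its own range. Mrps5 is high in Tfh libraries alone, Mrpl41 and Mrps23 are low in Th1 libraries, Mrpl40 and Mrpl20 are high in Th17 libraries, and the other 7 are lowest on average in Tfh libraries.

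Some members that are named for the small subunit or the large have other places or functions. Mrps18a and Mrps30 sit in the large subunit, Mrps18b and Mrps18c in the small, and Mrps36 is a subunit of the 2-oxoglutarate dehydrogenase complex. Mrps18a, Mrps18b and Mrps18c, related proteins of which Mrps18c is closest to bacterial S18, averaged 74.1 ± 12.1, 29.7 ± 1.91 and 75.1 ± 18.3 CPM in Tfh, 79.5 ± 12.3, 40.4 ± 4.71 and 91.6 ± 17.4 CPM in Th17, and 89 ± 15.5, 38 ± 6.85 and 83.4 ± 18 CPM in Th1 libraries. Mrps18a and Mrps18c were not called. Mrps18b lay near the threshold against both other conditions: its call for Tfh over Th17 is given above, and for Tfh over Th1 it was not called (-0.36 ± 0.15, adjusted p = 0.0553) but was called under 10 of the 24 alternative settings, with adjusted p between 0.016 and 0.163. Mrps30 averaged 56 ± 13.6 CPM in Tfh, 79.5 ± 7.51 CPM in Th17 and 92.3 ± 17 CPM in Th1 libraries and was lower in Tfh than in Th1 (-0.72 ± 0.17, adjusted p = 0.00211). For Tfh over Th17 Mrps30 was not called by edgeR, nor with the GC correction (-0.40, adjusted p = 0.158). It was called lower there by DESeq2 (-0.47, adjusted p = 0.0382), by limma-voom (-0.50, 0.0498) and with a replicate block (-0.53, 0.00828). Leaving out Th1 replicate 1 or 3 or Tfh replicate 4 also gave a call. Mrps36 was near the limit of detection, at 0.796 ± 0.662 CPM in Tfh, 2.48 ± 0.351 CPM in Th17 and 2.65 ± 1.62 CPM in Th1 libraries. Its call against Th1 (-1.64 ± 0.63, adjusted p = 0.0367) was lost without Th1 replicate 1, 3 or 4 or Tfh replicate 2 or 5 (adjusted p up to 0.117). The call was also lost when same-numbered libraries were fitted as a block (adjusted p = 0.0553). With these 3 genes placed by structure the large subunit had 6 genes lower and none higher for Tfh over Th17, 21 and 2 for Tfh over Th1 and 7 and 5 for Th17 over Th1, and the small subunit had 6 and 1, 8 and 2, and 2 and 1. In the same order, 12%, 46% and 24% of 50 large-subunit genes tested were called. For 26 small-subunit genes the shares were 26.9%, 38.5% and 11.5%. Over all genes they were 16.8%, 49.3% and 36.9%.

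Mrpl12, the stalk protein that also binds the mitochondrial RNA polymerase, averaged 32.3 ± 8.35 CPM in Tfh, 46.5 ± 6.72 CPM in Th17 and 47.8 ± 13.5 CPM in Th1 libraries. It was lower in Tfh than in Th1 (-0.56 ± 0.20, adjusted p = 0.0258), a call lost without Th1 replicate 3 or 4 or Tfh replicate 1, 2 or 3 (adjusted p up to 0.0719). For Tfh over Th17 it was not called (-0.52 ± 0.20, adjusted p = 0.0859), but was with the GC correction (-0.46, adjusted p = 0.00508) and without Tfh replicate 4 (-0.70, adjusted p = 0.0205), the library in which its level was far above the other Tfh libraries. Mrpl58, a peptidyl-tRNA hydrolase that frees stalled chains, averaged 66.7 ± 4.78 CPM in Tfh, 76.3 ± 9.54 CPM in Th17 and 59.5 ± 9.91 CPM in Th1 libraries and was not called, although for Th17 over Th1 (0.36 ± 0.14, adjusted p = 0.0521) it was called under 7 of the 24 alternative settings, with adjusted p between 0.0115 and 0.172. Mrps12, the homologue of the decoding-centre protein S12, was not called in any comparison (-0.33 for Tfh over Th17, -0.19 for Tfh over Th1 and 0.14 for Th17 over Th1), and its libraries spread widely: 24.4 to 45.5 CPM in Tfh, 19.6 to 73 CPM in Th17 and 11.2 to 66.5 CPM in Th1 libraries. Its transcript held 58.9% GC, and its highest libraries were Tfh replicate 4, Th17 replicate 4 and Th1 replicate 3, where the GC correlations were 0.55, 0.69 and 0.68.

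By origin, of 45 tested members with a bacterial homologue 1 was higher and 6 were lower for Tfh over Th17, and 1 and 16 for Tfh over Th1, with medians of -0.29 and -0.26. That was 15.6% and 37.8% called, against 16.8% and 49.3% of all genes. Of 31 mitochondria-specific members 6 were called for Tfh over Th17, all lower, and 3 were higher and 13 lower for Tfh over Th1, with medians of -0.35 and -0.26, which was 19.4% and 51.6% called. For Th17 over Th1, 2 and 5 of the members with a homologue were higher and lower, and 4 and 4 of the mitochondria-specific ones, 15.6% and 25.8% called, against 36.9% of all genes. In GENCODE vM21, 33 of the 78 share exon positions with another gene. The 45 that do not had medians of -0.33 for Tfh over Th17 and -0.34 for Tfh over Th1, and the 32 tested members that do had -0.23 and -0.15.

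Per kilobase of transcript, the highest members of the small subunit were Mrps21, Mrps6 and Mrps18c and those of the large subunit Mrpl52, Mrpl30 and Mrpl33. Mrps21 had 383 ± 61.9 CPM per kb in Tfh, 440 ± 28.4 in Th17 and 343 ± 77 in Th1 libraries. Mrpl52 had 377 ± 46, 395 ± 33.9 and 437 ± 102 CPM per kb in the same order, and neither gene was called in any comparison. The levels per kb of Mrpl30 were 272 ± 25.3 in Tfh, 295 ± 13.2 in Th17 and 336 ± 50.6 in Th1 libraries, and it was called lower in Tfh than in Th1, under 15 of the 24 alternative settings. Mrps6 and Mrps18c followed in the small subunit with 168 ± 17.8 and 118 ± 28.8 CPM per kb in Tfh libraries. At the other end of the small subunit were Mrps25 and Mrps36, at 3.37 and 3.46 CPM per kb over all libraries. The order leans on the annotated length: per kb of coding sequence Mrpl33 came before Mrpl52 and Mrpl30, and Mrps25 moved to place 23 of 29. Mrpl23, the homologue of a tunnel-exit protein, averaged 0.4 ± 0.441 CPM in Tfh, 0.923 ± 0.558 CPM in Th17 and 0.975 ± 0.415 CPM in Th1 libraries. Mrpl36 had 0 counts in all 15 libraries, and the reason was not tested. Its exons overlap those of Ndufs6 in GENCODE vM21, but the RefSeq positions do not (Ndufs6 to chr13:73328482, Mrpl36 from chr13:73328503). Ndufs6 averaged 35.7 CPM in Tfh, 45.4 CPM in Th17 and 36 CPM in Th1 libraries.

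Other genes of mitochondrial translation include 5 ribosomal proteins whose symbols do not begin with Mrp (Dap3, Ptcd3, Chchd1, Aurkaip1 and Gadd45gip1). Of these 5, 1 was lower for Tfh over Th17, 4 for Tfh over Th1 and 1 for Th17 over Th1. The medians were -0.34, -0.53 and -0.34. Over all genes, 9.98%, 25.2% and 17.8% were lower in these comparisons. For Tfh over Th1 the libraries of 2 of the 5 did not overlap (40%, against 34.3% of all genes). Chchd1, a small-subunit protein, had 70.2, 64.8, 63.1, 40.3 and 54.5 CPM in Tfh, against 108, 96.6, 79.2, 72.8 and 125 CPM in Th1 libraries (-0.72 ± 0.19, adjusted p = 0.0039). Dap3, a GTP-binding small-subunit protein, averaged 88.9 ± 8.71 CPM in Tfh and 118 ± 14.1 CPM in Th1 libraries (-0.41 ± 0.12, adjusted p = 0.00797).

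Of 25 assembly factors of the mitochondrial ribosome, 2 were called for Tfh over Th17, both higher (3 at an unadjusted p under 0.05). For Tfh over Th1, 1 was higher and 6 were lower, and for Th17 over Th1, 2 were higher and 8 lower. The medians were 0.01, 0.08 and -0.01. The shares called were 8%, 28% and 40%, against 16.8%, 49.3% and 36.9% of all genes. Ddx28, an RNA helicase of large-subunit assembly, averaged 87.3 ± 8.68 CPM in Tfh, 47.6 ± 11.7 CPM in Th17 and 15.3 ± 2.72 CPM in Th1 libraries. It was higher in Tfh than in Th17 (0.87 ± 0.17, adjusted p = 0.00159) and than in Th1 (2.51 ± 0.18, adjusted p = 2.02e-09). Tfb1m, which methylates the small-subunit rRNA, averaged 16.1 ± 3.61 CPM in Tfh, 20.8 ± 1.95 CPM in Th17 and 39.5 ± 7.3 CPM in Th1 libraries (Tfh over Th1 -1.29 ± 0.18, adjusted p = 9.88e-06). Of 15 translation factors and helpers, 1 was called for Tfh over Th17, as lower, and 2 were higher and 3 lower for Tfh over Th1. That was 6.67% and 33.3% called, against 16.8% and 49.3% of all genes. The factors higher than in Th1 included Mrrf, the ribosome recycling factor (69.3 ± 11.1 CPM in Tfh and 41.3 ± 5.25 CPM in Th1 libraries). Of 17 mitochondrial tRNA synthetases, 1 was called for Tfh over Th17 and 5 for Tfh over Th1, all of them lower. That was 5.88% and 29.4% called, against 16.8% and 49.3% of all genes. The synthetases lower than in Th1 included Wars2 (11.2 ± 2.26 CPM in Tfh, 10.4 ± 1.93 CPM in Th17 and 34 ± 3.1 CPM in Th1 libraries).

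The nuclear genes of the respiratory chain and ATP synthase, whose complexes take in the products of the mitochondrial ribosome, had medians close to those of the members. Of 74 tested, 10 were called for Tfh over Th17, all lower (median -0.31), and 1 was higher and 20 were lower for Tfh over Th1 (median -0.35). That was 13.5% and 28.4% called, against 16.8% and 49.3% of all genes. Cox6a1, a cytochrome oxidase subunit, averaged 300 ± 39.5 CPM in Tfh, 462 ± 41.7 CPM in Th17 and 551 ± 78.3 CPM in Th1 libraries. The 79 proteins of the cytosolic ribosome had another pattern, and all of their calls were lower. There were 2 for Tfh over Th17 (median -0.15), 49 for Tfh over Th1 (median -0.66) and 34 for Th17 over Th1 (median -0.54). That was 2.53%, 62% and 43% lower, against 9.98%, 25.2% and 17.8% of all genes. Many genes of the cytosolic ribosome have near-identical copies and their counts are uncertain. Lists of this kind were not tested against each other.

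**Figure D5:**
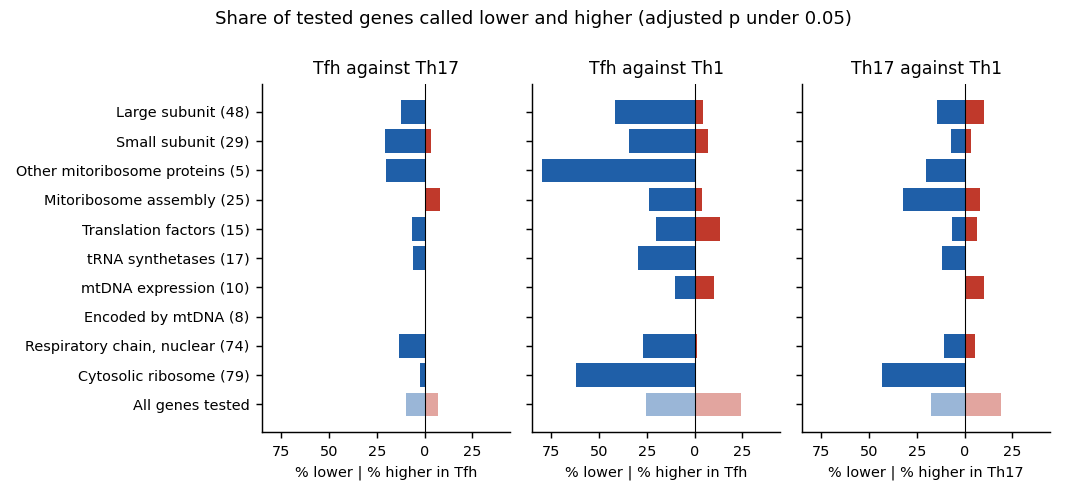
Share of the tested genes of each list called lower (left, blue) and higher (right, red) in the 3 comparisons, with the number tested in brackets and all 12591 genes in pale bars. Both mitochondrial subunits have more lower than higher genes in the Tfh comparisons, and the cytosolic ribosome has its largest shares of lower genes against Th1.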

How the data were processed

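The deposited files hold raw read counts per gene by Entrez ID, which the authors made with STAR 2.7.2b, featureCounts 1.6.4 and the mm10 genome, per the submitters' processing notes, from libraries made with 100 ng of RNA, per the labels' protocols. The sources used here do not give the strand setting, the annotation or the treatment of multi-mapping reads. Names came from RefSeq (GRCm38.p6) and GENCODE vM21, leaving 1886 of 27179 IDs unnamed. Genes were tested with edgeR 4.0.16 in R 4.3.3: default filter on low counts, TMM, 1 robust quasi-likelihood fit over 15 libraries without covariates, and Benjamini-Hochberg adjustment over 12591 genes, called at 0.05 (calls between conditions of 5 libraries). Log2 levels used a prior count of 2. Lengths and GC content came from 1 GENCODE coding transcript per gene. No 2 libraries agreed within counting noise. The members and lists were chosen with earlier results of these data known. Genes named had an adjusted p under 0.05, libraries that did not overlap and the largest changes of their list, beside 8 members named in every comparison, the highest and lowest per kb, and those that small counts needed. The 24 alternatives are other scalings, filters, DESeq2 1.42.0, limma-voom (limma 3.58.1), a replicate block, GC correction and leaving out each library. Counts from few reads (Mrpl23, Mrps36) limit precision.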

Additional observations from a re-analysis of the deposited data

Results flagged for a closer look

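In 4 of the 111 groups of 5 libraries examined, 1 library lay far from the other 4, by a gap that exceeded 0.71 of the whole range. Chance alone flags about 1 in 20 such groups. Mrpl12 had 47.1 CPM in Tfh replicate 4, against 27 to 30.6 CPM in the other Tfh libraries (gap 0.82 of the range). Mrps10 had 2.9 CPM in Tfh replicate 1, against 14.9 to 16.8 CPM (0.86). Mrps28 had 23 CPM in Th1 replicate 1, against 29.5 to 31 CPM in the other Th1 libraries (0.81). The large minus small difference of mean log2 CPM was -0.04 in Tfh replicate 3, against 0.16 to 0.24 in the other Tfh libraries (0.72).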

How the results depend on the processing

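Both the counts of called members and their median log2 fold changes moved with the processing. Without single libraries, the medians for Tfh over Th17 ranged over -0.34 to -0.24 (large) and -0.37 to -0.25 (small). For Tfh over Th1 they ranged over -0.38 to -0.23 (large) and -0.36 to -0.26 (small). For Tfh over Th17, the 6 large-subunit genes called lower became 12 with the GC correction, and leaving out libraries gave 4 to 7, with 3 to 9 for the small subunit's 6. For Tfh over Th1, the 2 large-subunit genes called higher became 1 with RLE size factors or no filter (1 to 2 without single libraries), and the lower counts ranged over 15 to 21 (large) and 7 to 13 (small). For Th17 over Th1, the 5 large-subunit genes called higher became 2 with RLE or a strict filter, 3 with no filter and 8 with the GC correction (2 to 6 without single libraries), the 7 lower ranged over 5 to 9, and the small subunit's 1 higher became 2 with library size only and 3 with the GC correction (1 to 3). The GC correction also called more of all genes, 28.2% for Tfh over Th17, 58.7% for Tfh over Th1 and 46.6% for Th17 over Th1. The differences in large minus small level ranged over -0.02 to 0.06, -0.11 to -0.03 and -0.12 to -0.07.

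Same-numbered libraries did not deviate together throughout (correlations from -0.10 to 0.57), so the numbers were not taken as pairs. With a replicate block, 24 members were lower and 1 higher for Tfh over Th17, with 23.4% of all genes called, Mrps36 lost its call for Tfh over Th1 (adjusted p = 0.0553, and 0.053 with GC correction), and Mrpl12 (0.0149) for Tfh over Th17 and Mrps18b (0.0469) for Tfh over Th1 were called. The large-subunit genes called lower were 15 for Tfh over Th17 and 11 for Th17 over Th1, and the small-subunit genes higher were 4 for Th17 over Th1. With block and GC correction together these were 16, 12 and 4, with 10 large-subunit genes higher for Th17 over Th1 and 4 small-subunit genes higher for Tfh over Th1. More of all genes were called as well. The block alone called 43.6% of all genes for Th17 over Th1, against 36.9% without it. Block and GC correction together called 32.2% for Tfh over Th17, 61.2% for Tfh over Th1 and 50.6% for Th17 over Th1.

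The signs that reversed belonged to members that were not called; leaving out single libraries gave -0.50 to 0.00 (Tfh over Th17) and -0.42 to 0.12 (Tfh over Th1) for Mrps12, and for Th17 over Th1 -0.15 to 0.06 for Mrpl12, -0.21 to 0.44 for Mrps12, -0.01 to 0.14 for Mrps18b and -0.39 to 0.22 for Mrps36. Mrps12 became 0.00 for Tfh over Th17 without Th17 replicate 4, 0.15 (GC), 0.21 (GC and block) and 0.12 (without Th1 replicate 3) for Tfh over Th1, and -0.21 to -0.03 for Th17 over Th1 without Th17 replicate 4 or Th1 replicate 1 (-0.09) or 5. For Th17 over Th1, Mrpl12 became 0.10 with GC correction, with or without the block, and 0.02 to 0.06 without Th1 replicate 3 or 4 or Th17 replicate 1. Mrps18b became -0.01 without Th1 replicate 2. Mrps36 became 0.01 (limma-voom), 0.13 (block), 0.11 (GC and block), and 0.02 and 0.22 without Th1 replicate 1 and 3. The causes were not tested.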

Other observations

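Of 10 regulators of mitochondrial genes, 9 were tested. For Tfh over Th1, Myc and Pprc1, a coactivator of the PGC-1 family, were lower and Nrf1 was higher (log2 fold changes -1.67, -0.68 and 0.38). For Tfh over Th17 only Myc was called. That was 33.3% called for Tfh over Th1 and 11.1% for Tfh over Th17, against 49.3% and 16.8% of all genes. Myc averaged 181 ± 30.9 CPM in Tfh, 377 ± 29.6 CPM in Th17 and 575 ± 109 CPM in Th1 libraries. Its part in the members' levels was not tested.

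Of the 13 proteins encoded by mitochondrial DNA, which are the products of the mitochondrial ribosome, 8 passed the filter and none was called in any comparison by edgeR, with 0, 0 and 2 at an unadjusted p under 0.05 for Tfh over Th17, Tfh over Th1 and Th17 over Th1. Over all genes, 16.8%, 49.3% and 36.9% were called in these comparisons. COX1 averaged 27332 ± 10204 CPM in Tfh, 25566 ± 6518 CPM in Th17 and 29627 ± 7303 CPM in Th1 libraries. The medians of the 8 were -0.04, 0.09 and 0.28. That they were not called does not show that their levels were alike. Of 10 tested genes that copy, transcribe or process mitochondrial DNA and RNA, 1 was higher and 1 lower for Tfh over Th1 (median 0.31). For Th17 over Th1, 1 was higher (median 0.18). That was 20% and 10% called, against 49.3% and 36.9% of all genes. The higher gene was Polg, the mitochondrial DNA polymerase, with 58.6 CPM in Tfh, 47.5 CPM in Th17 and 31.2 CPM in Th1 libraries.

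Within conditions the median SD of log2 CPM over the members was 0.28 in Tfh, 0.21 in Th17 and 0.27 in Th1 libraries. Over all genes tested it was 0.35, 0.32 and 0.38. The members and all genes were not matched for level, so the lower spread cannot be read as a trait of the members.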
